A study of Mus musculus with 53 samples.

Results

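Small nucleolar RNAs (snoRNAs) and small Cajal body RNAs (scaRNAs) are short nuclear RNAs that guide chemical marks onto other RNAs by base pairing. Box C/D snoRNAs work with the methyltransferase fibrillarin and mark the ribose of ribosomal RNA, and H/ACA snoRNAs work with the pseudouridine synthase dyskerin. The scaRNAs carry the same boxes but gather in Cajal bodies and guide marks on the spliceosomal small nuclear RNAs. Most vertebrate snoRNAs are cut out of the introns of other genes. They are not translated, so a comparison of ribosome-bound RNA with cytoplasmic RNA sets RNAs of the nucleus beside messenger RNAs.

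The rows taken were those whose gene symbol begins with Snora, Snord, Scarna or snoU, in any case, and that were above 0 in at least 6 of 12 libraries. This gave 50 members out of 34306 rows of the table. They were 6 scaRNAs, 3 rows with snoU names, 30 H/ACA and 11 box C/D snoRNAs. A further 226 rows matched by name. Of these, 132 were at 0 in the 12 libraries and 94 were above 0 in 1 to 5 of them. The members were chosen by their detection in these libraries and for their TRAP to input ratio, so that ratio is described with no test.

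The data are RNA sequencing of adult mouse heart. TRAP, translating ribosome affinity purification, recovers RNA bound to tagged ribosomes, and input is the cytoplasmic RNA. The tag is expressed in all cell lineages of CAG mice and after Tie2-Cre recombination, an endothelial driver, in Tie2 mice, as labels of the first deposit of the series describe these lines. The groups used were CAG mice after aortic banding (a ligature that narrows the ascending aorta), with 2 TRAP and 2 input libraries, CAG mice after sham surgery, with 2 TRAP and 2 input libraries, Tie2 mice without surgery, with 1 TRAP and 1 input library, and CAG mice without surgery, with 1 TRAP and 1 input library. Every animal thus carried the tag. Operated mice were male. The sex of the others, the interval after surgery and, for these libraries, the strain were not given. RNA was pooled before library preparation. Whether 2 libraries of 1 group stand for different mice is not stated, and a p-value here may therefore measure technical spread alone.

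The deposited values are RPKM, computed by the authors, and the whole reads behind them could be recovered. Libraries held 26568988 to 94878619 reads. Mitochondrially encoded rows took 0.0259% to 0.293% of the reads in TRAP libraries and 13.7% to 15.9% in CAG inputs. The Tie2 input stood apart with 3.17%. As a check of the labels, the 7 cardiomyocyte markers summed to 45577 to 62913 RPKM in the inputs and to 52126 to 62348 RPKM in CAG TRAP libraries. In Tie2 TRAP RNA they summed to 3113 RPKM, and the 7 endothelial markers to 1409 RPKM, against 98.1 RPKM in Tie2 input.

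The depth behind the members was small. Of the 50, 15 had at least 100 reads summed over the 12 libraries and 35 had fewer. The listed lengths ran from 66 to 414 bases, and 43 members were shorter than 150 bases, the lower end of the fragment sizes selected, per the labels' protocols. The libraries were made from poly(A) RNA, selected in 2 rounds, and with a method that does not mark strand. Reads from a snoRNA and from a transcript that overlaps it could therefore not be told apart. After poly(A) and size selection, reads of a row may come from the short RNA itself or from a longer transcript that contains it. Which of these they came from was not tested, so the levels below are those of the rows. In addition, 27 members carried family names in capitals, and 14 shared their name with a row in another case (SCARNA17 and Scarna17 are separate rows), so reads of related copies may be split between rows in an unknown way.

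TRAP RNA held less of these RNAs than input RNA in each of the 6 pairs. In operated hearts a pair is the TRAP and the input library with the same number, which nothing in the labels ties to the same mice, so which 2 libraries form a pair is arbitrary there. Scaled to 1000000 reads of the library (RPM), reads of the members were at 10.9 and 14.8 RPM in band TRAP, against 90.1 and 88.6 RPM in band input. Sham TRAP libraries had 16.3 and 14.5 RPM, against 77.8 and 87.3 RPM in sham input. Without surgery, Tie2 TRAP had 11.8 RPM, with an exact 95% interval of 10.7 to 12.9, against 174 RPM in Tie2 input, with an interval of 171 to 178. CAG TRAP had 19.1 RPM, with an interval of 18.2 to 20.0, against 114 RPM in CAG input, with an interval of 110 to 118. These intervals cover counting error only. The 6 TRAP libraries lay below the 6 inputs without overlap.

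**Figure D1:**
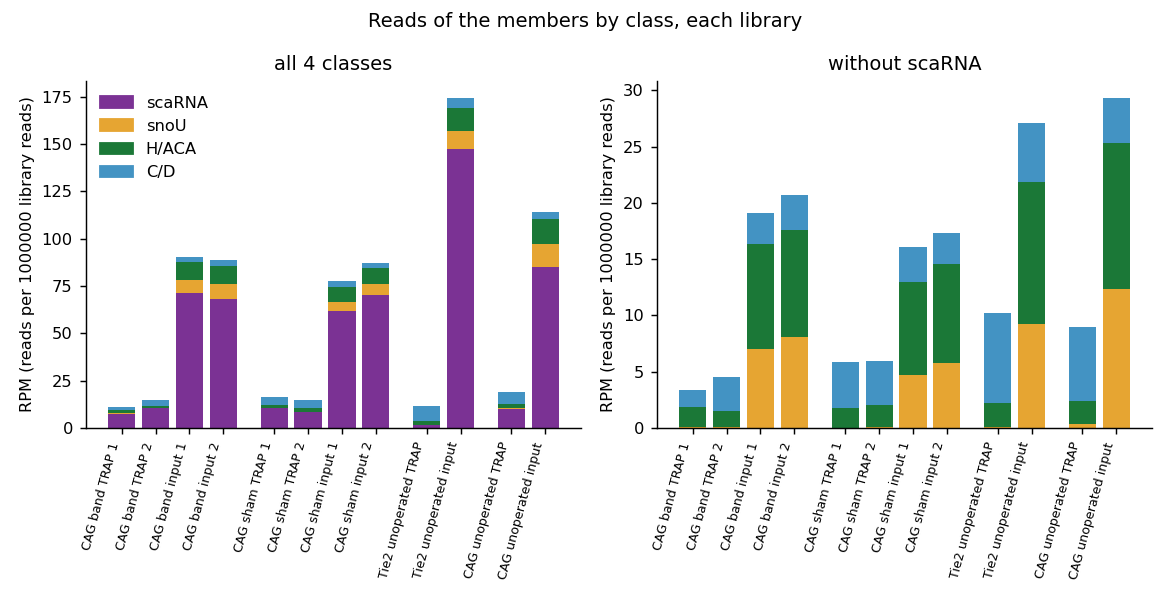
Reads of the 50 members, as RPM, in each of the 12 libraries, stacked by class, with all 4 classes on the left and without scaRNAs on the right, where the scale is smaller. Input bars are taller than TRAP bars in every pair, scaRNAs take most of each input, and the C/D share is largest in Tie2 TRAP RNA, at 68.2% of the members' reads.

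Over the members taken one by one, the median log2 ratio of TRAP to input, on RPKM + 1, was -0.61 and -0.94 in the band pairs, -0.52 and -0.51 in the sham pairs, -0.71 in the Tie2 pair and -0.81 in the unoperated CAG pair. Over the 19348 rows above 0 in at least 6 libraries it was -0.03 and -0.05 in the band pairs, -0.06 and -0.03 in the sham pairs, 0.21 in the Tie2 pair and -0.11 in the unoperated CAG pair. Adding 1 RPKM pulls low rows towards 0, and most members were low: over the 15 with at least 100 reads the median was -2.19 and -1.92 in the band pairs, -1.75 and -1.63 in the sham pairs, -2.33 in the Tie2 pair and -1.74 in the unoperated CAG pair. The 875 other rows of 66 to 414 bases had medians of -0.05 to 0.04 over the 6 pairs.

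At least 2-fold lower in TRAP RNA in both band pairs were 15 of 50 members, where 1.78% of all rows were, and in both sham pairs 13 of 50, where 1.47% were. In the single Tie2 pair 21 of 50 were at least 2-fold lower, against 8% of all rows, and in the single unoperated CAG pair 21 of 50, against 4.52%. In the other direction the counts were 0 of 50 after banding (0.388% of all rows), 0 of 50 after sham surgery (0.103%), 2 of 50 in the Tie2 pair (22.3%) and 0 of 50 in the unoperated CAG pair (0.579%). Among the 875 other rows of 66 to 414 bases, 65 were at least 2-fold lower in both band pairs and 54 in both sham pairs. In the Tie2 pair 122 of these 875 were, and in the unoperated CAG pair 94. At least 2-fold higher were 11 after banding, 8 after sham surgery, 164 in the Tie2 pair and 35 in the unoperated CAG pair. The rule names this contrast, so nothing is read from these counts.

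TRAP was lower than input in all 6 pairs for 23 of 50 members, where 10.1% of all rows were. Of the 11 C/D snoRNAs 0 were, and 10 of the 11 had fewer than 100 reads. By depth, 12 of the 15 members with at least 100 reads were lower in all 6 pairs, and 11 of the 35 with fewer. The part of depth in the C/D count was not tested. In 21 of 50 members all 6 TRAP libraries lay below all 6 inputs, where 4.21% of all rows did, and in 0 members all 6 lay above, where 2.32% did. Without the Tie2 pair, 26 of 50 were lower in all 5 CAG pairs (33.8% of all rows), and in 23 of 50 the 5 CAG TRAP libraries lay below the 5 CAG inputs (20.4% of all rows).

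**Figure D2:**
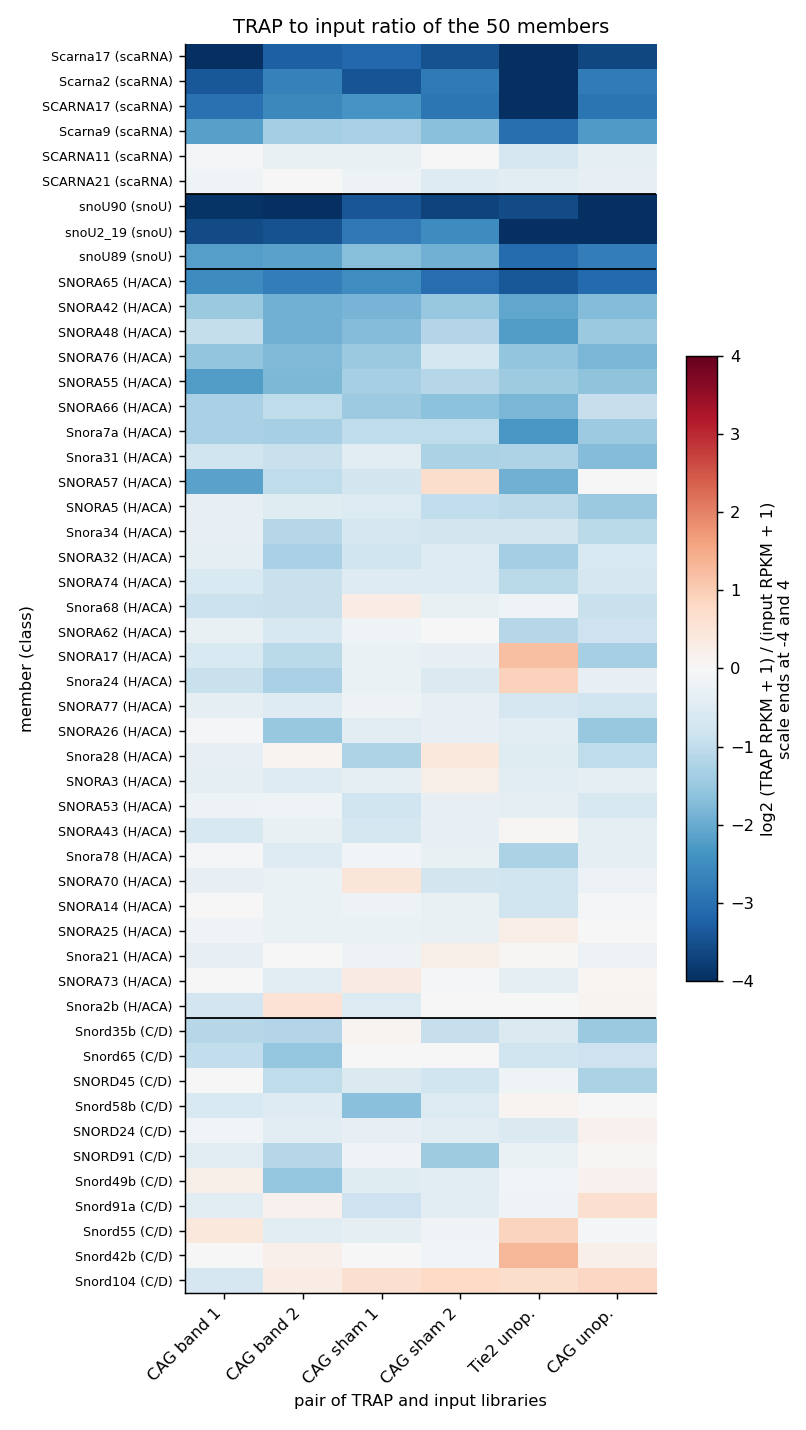
The log2 ratio of TRAP to input (RPKM + 1) for the 50 members (rows, grouped by class and ordered by median) in the 6 pairs (columns); blue is lower and red higher in TRAP RNA, and colours end at -4 and 4. SCARNA17, Scarna17, Scarna2, the snoU rows and SNORA65 are blue in each pair, and Snord104 is red in 5 of 6 pairs.

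The scaRNAs held most of the members' reads in each library but Tie2 TRAP, where they held 12.9%. In human cells the RNAs called SCARNA17 and SCARNA2 guide ribose methylation of small nuclear RNAs and are transcribed from genes of their own rather than from introns. SCARNA17, listed at 79 bases, was the most abundant member. It stood at 89.1 and 118 RPKM in band TRAP and at 122 and 97.8 RPKM in sham TRAP libraries, against 715 and 714 RPKM in band input and 625 and 727 RPKM in sham input. Without surgery it was at 15.04 RPKM in Tie2 TRAP, against 1424 RPKM in Tie2 input, and at 115 RPKM in CAG TRAP, against 883 RPKM in CAG input. The level was 5.13-fold to 8.02-fold lower in TRAP than in input over the 5 CAG pairs. In the Tie2 pair it was 94.7-fold lower, with an exact 95% counting interval of 70.9 to 130. It alone made up 62.7% to 65.8% of the members' reads in the 4 inputs of operated hearts.

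Scarna17, the row spelled in lower case and listed at 140 bases, followed the same order. It was at 2.64 and 4.05 RPKM in band TRAP and at 4.64 and 4.27 RPKM in sham TRAP, against 71.1 and 48.0 RPKM in band input and 48.5 and 57.9 RPKM in sham input. Tie2 TRAP had 1.11 RPKM, against 108 RPKM in Tie2 input, and unoperated CAG TRAP had 4.37 RPKM, against 65.3 RPKM in CAG input. It was thus 97.3-fold lower in the Tie2 pair, on 6 TRAP reads and with an interval of 44.5 to 266, and 10.5-fold to 27.0-fold lower in the CAG pairs. Across the 12 libraries, log2 levels of SCARNA17 ran most closely with those of Scarna17 (Pearson's r = 0.97), then Snora7a (0.95) and SNORA65 (0.94). These correlations describe 12 libraries that share the split into TRAP and input.

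Scarna2 was at 0.0637 and 0.863 RPKM in band TRAP and at 0.273 and 0.578 RPKM in sham TRAP, against 10.1 and 11.2 RPKM in band input and 12.8 and 10.1 RPKM in sham input. Tie2 TRAP had 0.312 RPKM, against 46.1 RPKM in Tie2 input, and unoperated CAG TRAP had 1.09 RPKM, against 13.6 RPKM in CAG input. No other gene's span held it in the RefSeq table, whereas Scarna17 lies within the span of the gene Gm41774. Its 6 TRAP values lay far below its 6 inputs, and the Tie2 input was 3.38-fold higher than the unoperated CAG input.

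Scarna9, whose human counterpart guides methylation of U2 RNA, had no read in the 6 TRAP libraries and 4 to 25 reads in the inputs. With 3 reads allowed in a TRAP library, it was at least 6.42-fold lower in Tie2 TRAP than in Tie2 input and at least 8.33-fold lower in unoperated CAG TRAP than in CAG input. In the operated pairs the limits ran from at least 1.21-fold to at least 3.09-fold lower. Scarna9 was above 0 in 6 libraries, which were the 6 inputs. It is thus a member only through the inputs, where it was high, and these limits support nothing about the members. It is also among the members counted above as lower in all 6 pairs and as without overlap. The remaining scaRNAs, SCARNA11 and SCARNA21, had 17 and 18 reads in all, and their TRAP and input values overlapped.

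**Figure D3:**
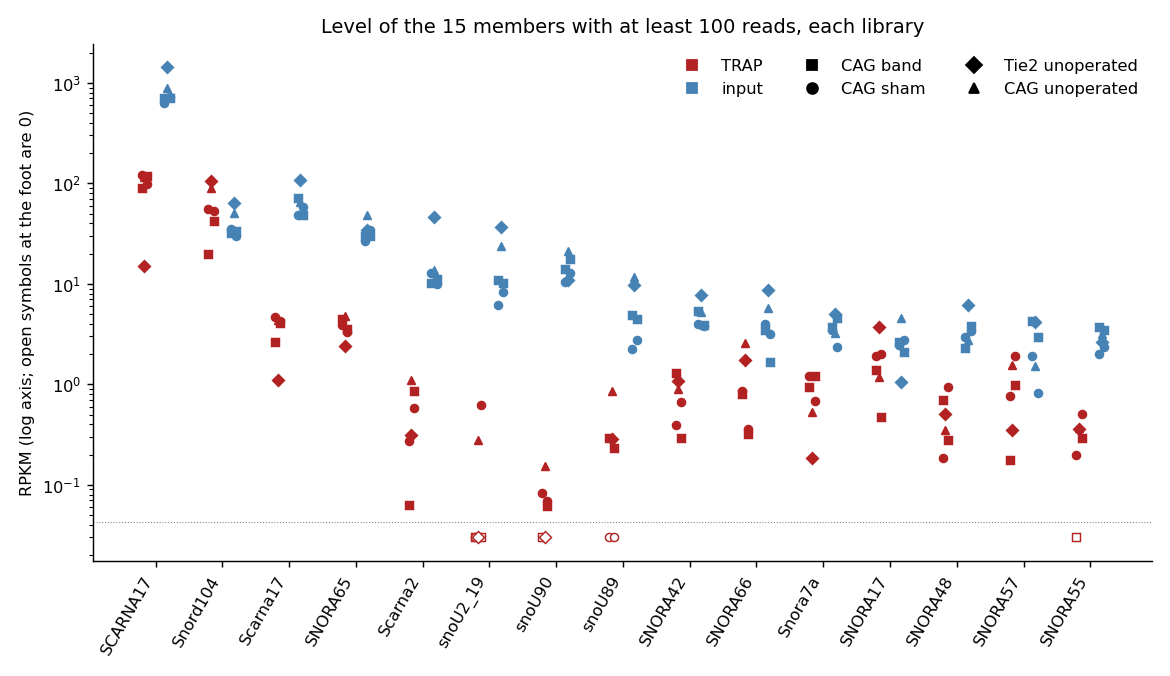
RPKM, on a log axis, of the 15 members with at least 100 reads in each of the 12 libraries (TRAP red and left, input blue and right; shapes mark the hearts; open symbols at the foot are libraries at 0). TRAP and input do not overlap for 11 of the 15; they overlap for Snord104, SNORA66, SNORA17 and SNORA57.

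The snoU rows were almost without reads in TRAP RNA. Human U89 guides pseudouridylation of U5 RNA and human U90 guides methylation of U1 RNA, both in Cajal bodies, and the third row, snoU2_19, carries the family name of a guide of U2 RNA. Together they had 3 and 4 reads in band TRAP, against 200 and 291 in band input, and 1 and 3 reads in sham TRAP, against 230 and 191 in sham input. Tie2 TRAP had 3 reads, against 465 in Tie2 input, and unoperated CAG TRAP had 29 reads, against 327 in CAG input. In RPM the sums were 40.3-fold to 167-fold lower in TRAP RNA.

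For snoU90, band TRAP had 0 and 1 read, against 138 and 219 reads in band input, and sham TRAP had 1 and 1 read, against 177 and 145 reads in sham input. Tie2 TRAP had 0 reads, against 189 in Tie2 input, which is at least 48.5-fold lower. Unoperated CAG TRAP had 5 reads, against 195 in CAG input, which is 139-fold lower with an interval of 58.7 to 434. This last library was the deepest of the 12. snoU2_19 had 0 and 0 reads in band TRAP, against 24 and 28 in band input, and 0 and 2 reads in sham TRAP, against 23 and 21 in sham input. Its Tie2 TRAP count was 0, against 142 reads in Tie2 input, at least 36.5-fold lower.

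snoU89 had 0.292 and 0.233 RPKM in band TRAP and 0 and 0 RPKM in sham TRAP, against 4.90 and 4.49 RPKM in band input and 2.27 and 2.79 RPKM in sham input. It was at 0.286 RPKM in Tie2 TRAP, against 9.84 RPKM in Tie2 input, and at 0.856 RPKM in unoperated CAG TRAP, against 11.7 RPKM in CAG input. All 6 TRAP values were below all 6 inputs for each snoU row.

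The 30 H/ACA snoRNAs were lower in TRAP RNA as a class, by less than the scaRNAs in 5 of the 6 pairs. In the second band pair the H/ACA sum was 6.76-fold and the scaRNA sum 6.59-fold lower. Their reads summed to 1.77 and 1.41 RPM in band TRAP, against 9.40 and 9.52 RPM in band input, and to 1.72 and 1.96 RPM in sham TRAP, against 8.23 and 8.81 RPM in sham input. Tie2 TRAP had 2.14 RPM, against 12.6 in Tie2 input, and unoperated CAG TRAP had 2.09 RPM, against 12.99 in CAG input. The sums were 4.49-fold to 6.76-fold lower over the 6 pairs, and 16 of the 30 were lower in all 6.

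SNORA65, whose human counterpart guides pseudouridylation of the large ribosomal RNA, was the most abundant of the class. It was at 4.46 and 3.56 RPKM in band TRAP and at 3.91 and 3.31 RPKM in sham TRAP, against 30.1 and 30.0 RPKM in band input and 26.8 and 34.7 RPKM in sham input. Tie2 TRAP had 2.38 RPKM, against 34.7 RPKM in Tie2 input, and unoperated CAG TRAP had 4.78 RPKM, against 48.9 RPKM in CAG input. The groups did not overlap, and the level was 6.75-fold to 14.6-fold lower in TRAP RNA.

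Lower down, SNORA42 and SNORA66, whose human counterparts act on the small ribosomal RNA, had median log2 ratios of -1.79 and -1.37, and Snora7a had -1.31. SNORA42 lay between 0.296 and 1.30 RPKM in TRAP libraries (median 0.782) and between 3.84 and 7.84 RPKM in inputs (median 4.67). SNORA66 lay between 0.318 and 2.56 RPKM in TRAP libraries (median 0.827) and between 1.68 and 8.74 RPKM in inputs (median 3.74), with some overlap. Snora7a lay between 0.184 and 1.21 RPKM in TRAP libraries (median 0.812) and between 2.38 and 4.97 RPKM in inputs (median 3.63).

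Of the 8 H/ACA snoRNAs with at least 100 reads, SNORA57 and SNORA17 were those not lower in TRAP in all 6 pairs. Sparser members of the class also were not, among them Snora24, on 44 reads in all. Like SNORA17, Snora24 was lower in the 5 CAG pairs and higher in the Tie2 pair, at a log2 ratio of 0.92. SNORA57 had 0.178 and 0.994 RPKM in band TRAP and 0.763 and 1.94 RPKM in sham TRAP, against 4.25 and 2.99 RPKM in band input and 1.94 and 0.818 RPKM in sham input. It was lower in TRAP in 4 of 6 pairs and higher in 2, the second sham pair and, by 0.02 on the log2 scale, the unoperated CAG pair. SNORA17 had 1.4 and 0.478 RPKM in band TRAP and 1.93 and 1.99 RPKM in sham TRAP, against 2.65 and 2.10 RPKM in band input and 2.48 and 2.75 RPKM in sham input. In unoperated CAG hearts it had 1.20 RPKM in TRAP, against 4.56 RPKM in input. In Tie2 hearts the order was the opposite, with 3.72 RPKM in TRAP on 19 reads, against 1.05 RPKM in input on 7 reads.

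The box C/D class was led by 1 member that went the other way. Snord104, whose human counterpart guides methylation of the large ribosomal RNA, was the second most abundant member and lies within the span of the long noncoding RNA gene Gm36220 in the RefSeq table. It was at 20.0 and 42.0 RPKM in band TRAP and at 55.3 and 53.3 RPKM in sham TRAP, against 32.4 and 34.0 RPKM in band input and 35.1 and 30.3 RPKM in sham input. Tie2 TRAP had 105 RPKM, against 63.9 RPKM in Tie2 input, and unoperated CAG TRAP had 90.2 RPKM, against 50.5 RPKM in CAG input. TRAP was higher in 5 of the 6 pairs, by 1.24-fold to 1.78-fold, and 1.63-fold lower in the first band pair, with an interval of 1.11 to 2.38. In the second band pair the interval of the ratio, 0.939 to 1.64, included 1.

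The level of Snord104 ran with that of no other member as SCARNA17 did with Scarna17. Its closest members over the 12 libraries were Snord42b (r = 0.41), Snord49b (0.40) and Snora21 (0.34). The other C/D snoRNAs were sparse. Without Snord104 the class held 6 and 5 reads in band TRAP, against 12 and 27 in band input, and 9 and 6 reads in sham TRAP, against 33 and 20 in sham input. Tie2 TRAP held 27 reads, against 40 in Tie2 input, and unoperated CAG TRAP held 25 reads, against 14 in CAG input. In RPM these sums were 1.14-fold to 7.11-fold lower in TRAP RNA.

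Other measures moved with the split into TRAP and input, among them nuclear RNAs, mitochondrial reads and cell type markers. Malat1 and Neat1, long noncoding RNAs kept in the nucleus, were the 2 of 7 listed noncoding RNAs above 0 in at least 6 libraries, and their median log2 ratio lay between -4.47 and -3.13 over the 6 pairs. Malat1 was at 27.0 and 14.2 RPKM in band TRAP and at 15.2 and 16.8 RPKM in sham TRAP, against 364 and 392 RPKM in band input and 256 and 256 RPKM in sham input. For the 35 microRNA rows above 0 in at least 6 libraries the median log2 ratio was -0.70 in the Tie2 pair. In the CAG pairs it ran from -0.44 to -0.14. Of these 35, 12 were lower in all 6 pairs (10.1% of all rows) and 0 higher in all 6 (1453 of 19348 rows). In the Tie2 pair 15 of the 35 were at least 2-fold lower (8% of all rows) and 1 at least 2-fold higher (22.3%). The share of mitochondrial reads was also lower in TRAP libraries, as given above. The 5 erythroid markers were lower in TRAP in all 6 pairs, with sums of 61.7 to 206 RPKM in CAG TRAP and 611 RPKM in Tie2 TRAP libraries, against 1412 to 2565 RPKM in the inputs. All 6 fibroblast and all 5 macrophage markers were lower in TRAP in the 5 CAG pairs and higher in the Tie2 pair. The fibroblast sums were 76.3 to 125 RPKM in CAG TRAP, against 193 to 234 RPKM in CAG inputs, and the macrophage sums 54.6 to 65.3 RPKM, against 89.5 to 149 RPKM. The part of these differences in the members' ratios was not tested. Of the genes for the proteins of the particles, 0 of 9 box C/D protein genes and 0 of 6 H/ACA protein genes were at least 2-fold lower in both band pairs or in both sham pairs. Of all rows only 1.78% and 1.47% were, so nothing is read from these counts of 0. The median log2 ratios of the protein genes lay between -0.37 and 0.36 over the 4 kinds of heart. In the unoperated CAG pair 1 of the 9 was at least 2-fold lower, where 4.52% of all rows were. It was Nop58, a core protein of the box C/D particle, at a log2 ratio of -2.85, and at -2.74 in the second band pair. Lower in all 5 CAG pairs were 4 of the 9 box C/D and 0 of the 6 H/ACA protein genes, and 33.8% of all rows.

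Some members could be set beside the genes whose spans hold them. Whether a member lies in an intron of such a gene, and on its strand, was not checked. Of the 50, 20 matched the RefSeq table by symbol and 19 of these lay within the span of another gene. Set side by side were 10 members and the genes that hold them, in 12 pairs of member and gene. In 9 of the 12 the member had the lower median ratio. Snora7a had 151 reads in all, and each of the others only 7 to 60. Adding 1 RPKM pulls such low members towards 0, so nothing is read from the count of 9. Snora78, Snord91a and the gene 2410006H16Rik enter more than once. The genes included Rpl32, Rpl17, Rpl23 and Rpl23a, which code for ribosomal proteins. Snora7a, at a median log2 ratio of -1.31, lies within the span of Rpl32, at 0.25. Snora31, at -1.07, lies within the span of Tpt1, at 0.27. The gene was lower than the member for Snora78 (-0.34), within the spans of Rps2 (-0.82) and of the noncoding RNA gene Snhg9 (-1.42), and for Snord91a (-0.28), within the span of Tsr1 (-0.30). The member's and the gene's reads share a locus, so these are not independent measurements.

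**Figure D4:**
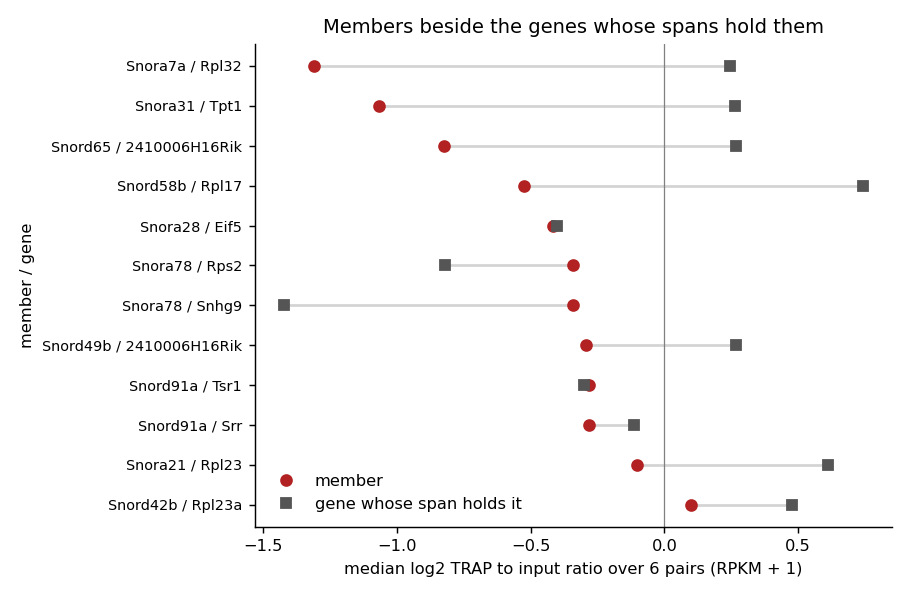
Median log2 ratio of TRAP to input over the 6 pairs (RPKM + 1) for 10 members (circles) and the genes whose spans hold them (squares), 12 pairs in all. The circle lies left of the square in 9 of the 12 pairs, and most squares lie right of 0. All members shown but Snora7a had 60 reads or fewer over the 12 libraries.

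Tie2 and CAG hearts without surgery were compared with 1 library on each side, so no test was possible. In input RNA, the members' median log2 difference of Tie2 from CAG was 0.24, with 31 of 50 higher and 18 lower. Over all rows it was 0.04, with 11370 of 19348 higher and 7801 lower. The Tie2 input was above the other 5 inputs for 24 of 50 members, where 34.7% of all rows were. Among these, Scarna2 had 46.1 RPKM in Tie2 input, against 10.1 to 13.6 RPKM in the 5 CAG inputs, and snoU2_19 had 37.2 RPKM, against 6.19 to 23.8 RPKM. The Tie2 input was the library with the low mitochondrial share. The part of that share in these levels was not tested, and the mouse line and the library cannot be told apart.

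In TRAP RNA, the members' median log2 difference of Tie2 from CAG was 0.02, with 25 of 50 higher and 20 lower. Over all rows it was 0.42, with 14230 of 19348 higher and 4930 lower. The scaRNA and snoU sums were the low ones. The scaRNA reads were at 1.52 RPM in Tie2 TRAP, with an exact 95% interval of 1.16 to 1.97, against 10.1 RPM in unoperated CAG TRAP, with an interval of 9.51 to 10.8, and at 7.54 and 10.3 RPM in band TRAP and 10.4 and 8.56 RPM in sham TRAP. The snoU rows had 3 reads in Tie2 TRAP, at 0.0775 RPM with an interval of 0.0160 to 0.226, against 0.306 RPM in unoperated CAG TRAP, with an interval of 0.205 to 0.439. In the operated hearts the snoU sums were at 0.0791 and 0.0840 RPM in band TRAP and at 0.0282 and 0.0717 RPM in sham TRAP, so Tie2 TRAP lay within their range. H/ACA reads were at 2.14 RPM in Tie2 TRAP, against 2.09 in unoperated CAG TRAP, and C/D reads at 8.03, against 6.58. The cardiomyocyte markers were lower in the same library, at 3113 RPKM in sum, against 62348 RPKM in unoperated CAG TRAP, and the endothelial markers higher, at 1409 RPKM, against 63.2 RPKM. Their part in the scaRNA levels was not tested. In such bulk samples, fewer cells of a type and less RNA per cell cannot be told apart.

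The members called after banding were few, and their share was near that of all rows. Band and sham libraries were compared with limma on log2(RPKM + 1), with p-values adjusted by the Benjamini-Hochberg method over the 11654 rows that reached 1 RPKM in at least 2 libraries, and called at an adjusted p under 0.05. Of the members, 32 passed that filter and the others were too low. In input RNA 2 of the 32 were called, both higher after banding, where 4.08% of all rows tested were called in either direction. An unadjusted p under 0.05 was found for 7 of the 32, against 19.3% of all rows. The median log2 fold change was 0.17 over the 32, with 22 above 0 and 10 below, and -0.01 over all rows tested. In TRAP RNA 0 of 32 were called by limma, where 3.77% of all rows were, and 4 of 32 had an unadjusted p under 0.05, against 19.7% of all rows. The median was -0.02 over the 32 and -0.01 over all rows.

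**Figure D5:**
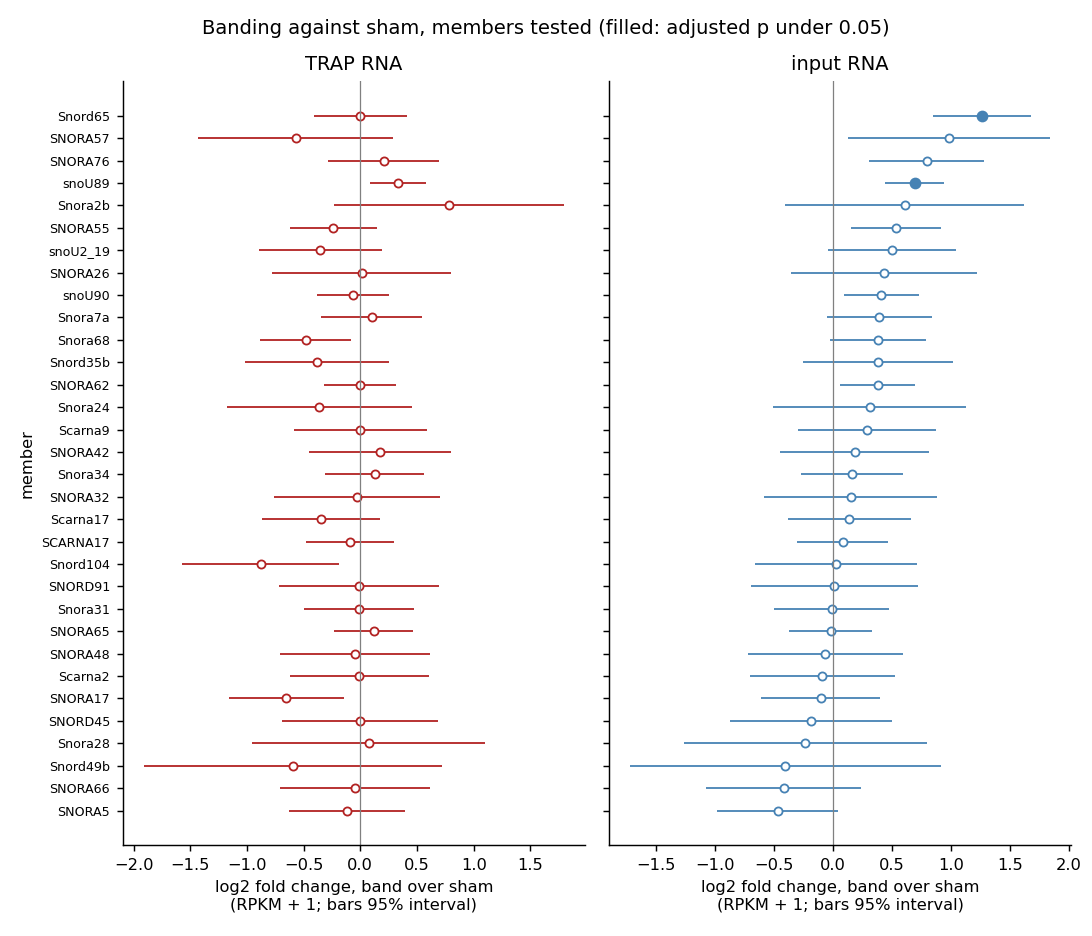
Log2 fold change of band over sham (RPKM + 1) with its 95% interval for the 32 members tested, in TRAP RNA (left) and input RNA (right), both in the order of the input values. Filled points, adjusted p under 0.05, are Snord65 and snoU89 in input RNA; in TRAP RNA there is none.

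snoU89, a guide of small nuclear RNA modification, averaged 4.70 ± 0.29 RPKM in band input and 2.53 ± 0.37 RPKM in sham input (SD, n = 2 each), on 38 and 44 reads after banding and 30 and 25 reads after sham surgery. The log2 fold change was 0.69 (SE 0.10, adjusted p = 0.0185 by limma). Both band inputs were above both sham inputs, and all 4 were below the unoperated inputs, which had 9.84 RPKM in Tie2 and 11.7 RPKM in CAG hearts. In TRAP RNA it had 6 reads in the band libraries together, against 0 in the sham libraries, with a log2 fold change of 0.34 (SE 0.10, adjusted p = 0.14 by limma). With a pseudocount of 0.1 RPKM the TRAP difference was called (adjusted p = 0.00535 by limma) and the input call was lost (0.0604). By limma voom on the recovered reads the input call was lost (adjusted p = 0.151), and leaving out any 1 of the 4 input libraries or of the 2 sham TRAP libraries also ended it, with adjusted p-values of 0.0571 to 0.154.

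Snord65, a box C/D snoRNA whose human counterpart acts on the small ribosomal RNA, was the other call, and it rested on 7 reads. It had 2 and 5 reads in band input, against 0 and 0 in sham input, which is at least 2.95-fold higher over the group with 3 reads allowed in sham input (adjusted p = 0.0148 by limma). The 2 sham inputs were at 0, while the unoperated inputs had 5 reads in Tie2 and 2 reads in CAG hearts. Band and sham TRAP libraries had 0 reads. Snord65 is just inside the rule, above 0 in 6 libraries, of which 2 are the band inputs. It is thus a member only through the group in which it was high, and its call supports nothing about the members. The call was lost by voom (adjusted p = 0.05002), without the filter on low values (0.0510) and without either sham input (0.123 and 0.140). The noncoding RNA gene whose span holds it, 2410006H16Rik, was lower after banding in the same RNA, at 118 and 95.4 RPKM in band input, against 184 and 198 RPKM in sham input (log2 fold change -0.84, SE 0.12, adjusted p = 0.0148 by limma). That call was lost without either sham input (adjusted p = 0.112 and 0.152 by limma) or without the second band input (0.0777).

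The most abundant members gave no call. SCARNA17 had a log2 fold change of 0.08 in input RNA (95% interval -0.31 to 0.47, adjusted p = 0.853 by limma) and of -0.09 in TRAP RNA (-0.48 to 0.30, adjusted p = 0.834). Scarna2 had -0.09 in input RNA (-0.70 to 0.53, adjusted p = 0.904 by limma). For Snord104 the value was 0.03 in input RNA (-0.66 to 0.72, adjusted p = 0.975 by limma) and -0.88 in TRAP RNA (-1.57 to -0.19, adjusted p = 0.157). Its band TRAP libraries differed from each other, at 20.0 and 42.0 RPKM, and the first decided the value. Without the first one the log2 fold change was -0.36 (adjusted p = 0.0521 by limma) and the change of the ratio to input -0.39 (adjusted p = 0.204), against -0.91 with both. Without the second one it was called lower (log2 fold change -1.4, adjusted p = 0.000563 by limma), as was the change of its ratio to input (-1.43, adjusted p = 0.00886).

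Whether banding changed the ratio of TRAP to input was tested as an interaction in the same fit. By limma, 0 of the 32 members were called, as were 0% of all rows, and 7 of 32 had an unadjusted p under 0.05, against 4.78% of all rows. The median over the 32 was -0.29, with 9 above 0 and 23 below, and 0.00 over all rows tested. The smallest adjusted p of a member was 0.591, for Snord65. Snord65 had 0 reads in the band and sham TRAP libraries, so its value of -1.26 is its input change with the sign reversed. Among the 7 were also snoU90, snoU2_19 and snoU89, with 0 to 1, 0 to 2 and 0 to 3 reads per band or sham TRAP library. For snoU90 the value of -0.47 was close to its input change of 0.41 with the sign reversed. The rest of the 7 were SNORA55, SNORA57 and Snora68, which were higher in input RNA and lower in TRAP RNA after banding. Snora68 changed by 0.38 in input and by -0.48 in TRAP RNA, on 0 to 2 reads per band or sham TRAP library. SNORA57 changed by 0.99 in input and by -0.57 in TRAP RNA, on 1 to 12 such reads. None of the 7 was called after adjustment, so nothing is read from their count. Over all rows the calls became 197 without the first band TRAP library and 78 without the second, with 0 and 1 of the members among them.

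Among the genes of the particles, the H/ACA proteins held the calls. Gar1 and Nhp2, a pair of core proteins of the H/ACA particle, were called higher after banding in input RNA, 2 of 5 genes tested. Nhp2 was at 47.6 and 51.8 RPKM in band input, against 31.9 and 32.9 RPKM in sham input (log2 fold change 0.60, SE 0.09, adjusted p = 0.0188 by limma). Gar1 was at 28.8 and 32.6 RPKM in band input, against 21.4 and 23.0 RPKM in sham input (log2 fold change 0.45, SE 0.09, adjusted p = 0.0443 by limma). In TRAP RNA Nhp2 was called too, at 73.9 and 82.8 RPKM in band TRAP, against 51.0 and 53.7 RPKM in sham TRAP (log2 fold change 0.57, SE 0.09, adjusted p = 0.0223 by limma). Each of these calls was lost when any 1 of the 2 sham input, 2 sham TRAP or 2 band input libraries was left out, with adjusted p-values by limma of up to 0.169 for Nhp2 in input RNA, 0.301 for Gar1 and 0.187 for Nhp2 in TRAP RNA. The Gar1 call was also lost with a pseudocount of 0.1 RPKM (adjusted p = 0.0505 by limma), without the filter on low values (0.0622), with the replicate number as a block (0.0679) and with a crossed block chosen after seeing the data (0.0583), and the Nhp2 call in TRAP RNA without the filter (0.0566). By limma, 0 of 9 box C/D protein genes and 0 of 7 genes of the Cajal body and nucleolar assembly list were called in either RNA, with the lowest adjusted p-values at 0.128 for Znhit3 in TRAP RNA and 0.0613 for Nolc1 in input RNA. Of the cell type lists, 1 of 7 cardiomyocyte, 1 of 6 fibroblast, 1 of 5 macrophage and 1 of 5 smooth muscle genes were called higher in input RNA, 0 of 7 endothelial genes were called, and 1 of 5 erythroid genes was called lower. The part of cell makeup in the members' changes was not tested.

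At the edge of the rule, 7 members were above 0 in exactly 6 libraries, with 10 to 53 reads each, and 9 other rows were above 0 in 5. Those just inside were Scarna9, SNORA14, SNORA62, Snord42b, SNORD45, Snord58b and Snord65, and just outside were Scarna13, Snora16a, SNORA44, SNORA61, SNORA71, SNORD58, SNORD62, Snord89 and snoU13, with 5 to 10 reads each. The 226 rows left out were at 0.343 and 0.168 RPM in band TRAP, against 1.26 and 0.940 in band input, 0.226 and 0.287 in sham TRAP, against 0.778 and 0.787 in sham input, 0.413 in Tie2 TRAP, against 1.73 in Tie2 input, and 0.148 in unoperated CAG TRAP, against 1.43 in CAG input.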

How the data were processed

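The authors deposited RPKM, which are reads scaled to transcript length and library total, for 34306 rows in 12 libraries, with 0 columns of other samples. The submitters' processing notes name the build NCBIM37 and the tools TopHat 1.4, HTSeq 0.5.3 and CASAVA 1.8.2. Settings and annotation are not given in the sources used here. RPKM times length fell on whole reads for 233410 of 233410 positive values, within 0.02 reads, and those reads gave sums (also as RPM), exact 95% intervals and limits of 3 reads for a count of 0, which cover counting error only.

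The members and lists were chosen with earlier results of these data known. Named members were the 12 highest in mean RPKM, the 5 lowest and 5 highest in median ratio among members with at least 100 reads, those called, and those at the edge of the rule, with the genes that hold them and the particle proteins.

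Log2(RPKM + 1) was tested with limma 3.58.1 (trend, two-sided) in R 4.3.3, in 1 fit of the 12 libraries with a mean per group, 4 residual degrees of freedom and 3.02 prior ones. The test was checked on simulated data, with changes placed only in rows of a higher mean RPKM than most members. That check does not cover rows as low as the 2 members called, snoU89 and Snord65. TRAP and input were compared without a test. Genes that hold members came from a RefSeq table of another build (GRCm38), used for names alone, and some of these genes are not reported here. No sequence of a member is printed. A pairing of libraries by replicate number was tried as an alternative.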

Additional observations from a re-analysis of the deposited data

Results flagged for a closer look

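SNORA17 differed in direction between the lines. Its log2 ratio of TRAP to input (RPKM + 1) was 1.20 in the Tie2 pair, against -1.34 in the unoperated CAG pair, -0.61 and -1.07 in the band pairs and -0.25 and -0.33 in the sham pairs. The Tie2 pair rested on 19 TRAP reads and 7 input reads, and its ratio of 3.52 had an exact 95% counting interval of 1.42 to 9.92. There was 1 Tie2 pair, so the difference between the lines was not tested. Of the 15 members with at least 100 reads, it was the 1 with such a reversal.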

How the results depend on the processing

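The 2 calls among members in input RNA became 1 with a pseudocount of 0.1 RPKM, 1 without the filter on low values, 1 with a filter of 5 RPKM and 0 by voom, and 0 to 4 when 1 library was left out, with 0 without either sham input and 4 without either band TRAP library. They stayed at 2 under quantile normalization and with totals without mitochondrial and haemoglobin rows. The 0 calls in TRAP RNA became 1 with a pseudocount of 0.1 RPKM and 0 to 2 when 1 library was left out (2 without the first and 1 without the second band TRAP library), and the 0 interaction calls became 0 to 1 (1 without the second band TRAP library). By voom both stayed at 0. The cause was not tested. With the replicate number as a block, the calls were 2 in input RNA, 0 in TRAP RNA and 0 in the interaction, as without it, but Gar1 was not called in input RNA. The deviations of equal-numbered libraries correlated at -0.43 between sham and band TRAP, -0.17 between sham input and sham TRAP, -0.05 between sham and band input and 0.03 between band input and band TRAP. The numbers were therefore not taken to pair the libraries in the main tests. Apart from the alternative fits with a block, they served only to set each TRAP library beside an input. A crossed pairing of the band TRAP libraries, chosen after seeing the data, also gave 2, 0 and 0 calls. Values near 0 changed sign when 1 library was left out: Snord104 in input RNA to -0.077 and -0.0061 (range -0.077 to 0.13), SCARNA17 in input RNA to -0.027 (range -0.027 to 0.19) and SCARNA17 in TRAP RNA to 0.070 and 0.12 (range -0.29 to 0.12), on the log2 scale.

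The median log2 ratio of TRAP to input over members stayed negative under each alternative. It was -0.78 in band, -0.51 in sham (means of 2 pairs), -0.71 in Tie2 and -0.81 in unoperated CAG hearts. With a pseudocount of 0.1 RPKM it was -2.17, -1.66, -2.17 and -2.13 in that order, over members above 0 in 12 libraries -1.51, -1.47, -2.16 and -1.47, from summed reads -2.81, -2.42, -3.89 and -2.58, and over members with at least 100 reads, an alternative added after seeing the data, -2.06, -1.69, -2.33 and -1.74. Totals without mitochondrial and haemoglobin rows gave -0.61 in sham, -0.74 in Tie2 and -0.93 in unoperated CAG hearts. Single pairs ran from -0.94 to -0.61 in band and from -0.52 to -0.51 in sham hearts.

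Reads of members averaged 12.9 RPM in band TRAP, 89.3 in band input, 15.4 in sham TRAP and 82.5 in sham input. With totals without mitochondrial and haemoglobin rows they were 105 in band input, 96.9 in sham input, 181 in Tie2 input and 133 in unoperated CAG input. Without SCARNA17, an alternative added after seeing the data, they were 4.69 in band TRAP, against 32.9 in band input, 6.72 in sham TRAP, against 29.1 in sham input, 10.6 in Tie2 TRAP, against 62.0 in Tie2 input, and 10.03 in unoperated CAG TRAP, against 44.5 in CAG input. Single libraries ran from 10.9 to 14.8 in band TRAP, from 88.6 to 90.1 in band input, from 14.5 to 16.3 in sham TRAP and from 77.8 to 87.3 in sham input. Depth limits most members: 35 of 50 had fewer than 100 reads in all.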
